A study of Flaveria ramosissima and Flaveria robusta and Flaveria sonorensis with 9 samples.

Results

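Leaf transcripts of 190 genes fell at low CO2 in each of 4 Flaveria species that span C3 to C4 photosynthesis. The genes were chosen from the 29558 gene IDs that occur once in the deposited table. Of these IDs, 8632 averaged 1 TPM (transcript abundance scaled to the same total in each library) or more over the 6 libraries of every species. A gene was chosen when log2(TPM + 1) of the median low CO2 library lay at least 0.5 below that of the median control library in all 4 species. In addition, every low CO2 library had to lie below every control library in F. robusta, F. sonorensis and F. trinervia. The fall itself therefore chose the genes. Its values, and later counts of test calls on the same libraries, are given as a description and not as a test of the fall.

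The C3 species was F. robusta and the C4 species F. trinervia, with F. sonorensis as the Type I and F. ramosissima as the Type II intermediate. There was 1 species per photosynthetic type, so that species and type cannot be told apart. Values listed without names run in the order robusta, sonorensis, ramosissima, trinervia. Newly expanded mature leaves came from plants at control CO2, labelled as 380, or from plants held for 4 weeks at low CO2, labelled as 100. Both levels carry the unit of light intensity in the labels. All plants were kept at 200 μmol m-2 s-1 of light and 22 °C with 16 h of light, 8 h of dark and 70% humidity per the labels. For its RNA-seq plants the paper gives the same day length, but stronger light, a higher temperature and a lower humidity. Which of these values hold for the plants used here is unknown. Each of the 8 samples was represented by 3 numbered libraries. Nothing in the sources used here says whether these came from separate plants or whether a CO2 level had more than 1 growth run, so p-values over libraries measure the spread between libraries, which may be technical.

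In C3 leaves, Rubisco fixes CO2 directly in the mesophyll, and its competing reaction with oxygen starts photorespiration, which gains weight when CO2 is scarce. C4 leaves first fix CO2 by phosphoenolpyruvate carboxylase in the mesophyll, and bundle sheath cells set it free near their Rubisco. C3-C4 intermediate leaves recapture part of the CO2 of photorespiration in the bundle sheath, and Type II leaves also run part of a C4 cycle. Low CO2 therefore limits carbon gain to a different degree along this series. The IDs of the table are not paired with gene names (0 IDs hold one), so the functions of the 190 genes are unknown here, and 4 of them are named by ID. Members of C4, photorespiration or Calvin-Benson pathways could not be looked up.

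The 6 F. ramosissima libraries were less alike than those of the other species. Over the 8632 genes the rank correlation between control library 3 of F. ramosissima and its fellow control libraries was 0.835 and 0.872. In the other 7 samples the lowest correlation between libraries was 0.939. A level of 1 TPM was reached by 12813 genes in control library 3, and by 16564 and 15875 in control libraries 1 and 2. Values for F. ramosissima are therefore also given without its libraries 3 where they bear on a result. Because TPM keeps no read numbers, the depth of the libraries is unknown.

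**Figure D1:**
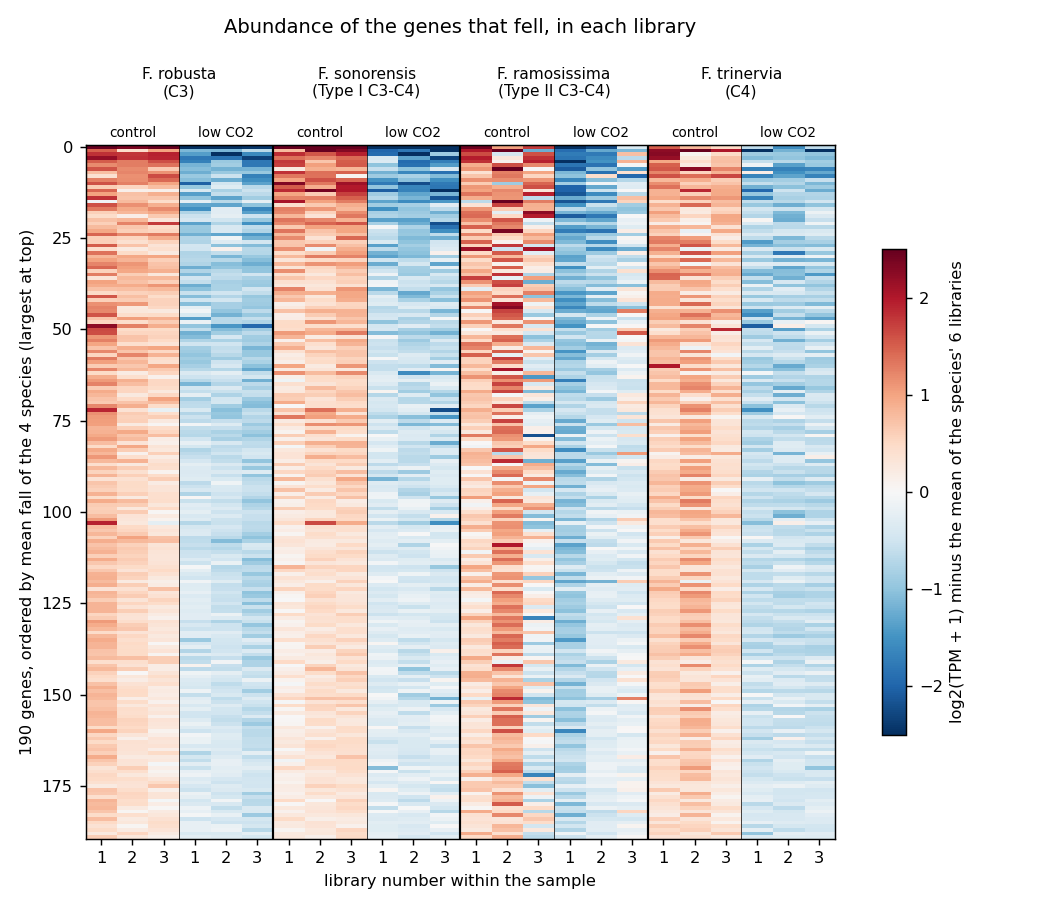
Heat map of the 190 genes (rows, ordered by the mean fall of the 4 species) in 24 libraries (columns, 3 per sample). Colour shows log2(TPM + 1) minus the mean of the 6 libraries of that species, with red above and blue below. Control libraries are mostly red and low CO2 libraries mostly blue in F. robusta, F. sonorensis and F. trinervia, where the choice required them to separate, while library 3 of both F. ramosissima samples is paler and mixed.

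The median fall of the 190 genes was similar in size in the 4 species. The median change was -1.11 (log2 of TPM + 1, low minus control) in F. robusta, -0.85 in F. sonorensis, -1.0 in F. ramosissima and -1.14 in F. trinervia. At low CO2 the median gene had 41.9%, 52.0%, 43.6% and 42.6% of its control TPM, from C3 to C4. Over the 8632 genes the median change was -0.03, -0.07, -0.18 and 0.02 in the same order. The choice required a fall of at least 0.5 in every species. The distance from all genes was therefore built in, and the same limit in each species favoured similar medians. Fewer cells of a type and less RNA per cell cannot be told apart in these whole-leaf samples.

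The falls were mostly moderate, with a tail of large ones. A fall of at least 1 (log2) in all 4 species was seen in 30 of the 190 genes, of at least 1.5 in 8, and of at least 2 in 2. The smallest of a gene's 4 falls lay between 0.5 and 0.6 in 70 genes. The 3 genes nearest to the threshold on the inside had smallest falls of -0.5013, -0.5016 and -0.5019, and the 3 nearest outside had -0.4989, -0.4985 and -0.4969. A further 78 genes met every other condition with a smallest fall between 0.4 and 0.5. Of the 8632 genes, 1901 fell by the medians in all 4 species and 241 fell by at least 0.5 in all 4, and the separation of libraries reduced these to 190.

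The size of the fall differed between species for many of the genes. In 57 genes the 4 falls lay within 0.5 (log2) of each other, and in 55 they were at least 1 apart. The fall was largest in F. trinervia for 69 genes, in F. robusta for 46, in F. ramosissima for 44 and in F. sonorensis for 31. It was smallest in F. sonorensis for 81 genes, in F. trinervia for 39, in F. ramosissima for 36 and in F. robusta for 34. Falls of at least 2 had another order, with 27 genes in F. sonorensis, 23 in F. ramosissima, 18 in F. robusta and 9 in F. trinervia. Among the chosen genes, F. sonorensis thus had the smallest median fall of the 4 species and the largest number of such falls. Falls of at least 2, and the species with the largest or smallest fall, were not counted over all genes. Whether these counts differ from those of genes at large was therefore not tested, and they only describe the set. The median change of F. trinervia (-1.14) was the largest with all libraries, but without control library 3 of F. ramosissima that of F. ramosissima was larger, at -1.3.

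The 44 genes with a fall of at least 2 in any species were shared unevenly. There were 23 with such a fall in 1 species only, 11 in 2 species, 8 in 3 and 2 in all 4. F. robusta and F. sonorensis shared 13 of them, which were 72.2% of the F. robusta list and 48.1% of the F. sonorensis list. F. sonorensis and F. ramosissima also shared 13 (48.1% and 56.5% of each list). F. robusta and F. trinervia shared 4, or 22.2% of the F. robusta list and 44.4% of the F. trinervia list. The 27 genes with a large fall in F. sonorensis had a median change of -2.55 there, against -1.88 in the C3, -1.79 in the Type II and -1.45 in the C4 species. Across the 190 genes the falls of F. sonorensis had a rank correlation of 0.569 with those of F. ramosissima. The falls of F. robusta had rank correlations of 0.367, 0.371 and 0.429 with those of the Type I, Type II and C4 species. Those of F. trinervia had 0.177 with the Type I and 0.138 with the Type II species. These are descriptions across genes of the same libraries, on falls that the choice had truncated. The sharing of large falls between species was not counted over all genes either, so it too only describes the set.

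The largest fall in F. robusta, F. sonorensis and F. ramosissima was that of a single gene. In F. robusta its median TPM was 540.8 at control and 11.2 at low CO2. The medians were 194 and 3.33 TPM in F. sonorensis, and 177 and 10.1 TPM in F. ramosissima. In F. trinervia the same gene was at 256 and 91.9 TPM. Its change of -1.47 there compares with -5.48, -5.49 and -4.01 in the other species.

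The 190 genes together made up a small share of the leaf transcripts. That share was lower at low CO2 in all 4 species, which the choice of falling genes built in. In F. robusta their summed TPM was 2.26%, 1.75% and 1.60% of the listed TPM in the 3 control libraries and 0.842%, 0.791% and 0.673% in the 3 low CO2 libraries. F. sonorensis had 2.41%, 2.82% and 2.66% at control and 1.31%, 1.35% and 1.295% at low CO2. The F. ramosissima libraries held 1.56%, 2.42% and 1.41% at control and 0.575%, 0.839% and 0.929% at low CO2. In F. trinervia the shares were 2.73%, 3.17% and 2.29% at control and 1.06%, 1.05% and 1.04% at low CO2. The groups did not overlap in any species. In F. robusta, F. sonorensis and F. trinervia this followed from the choice, as every gene had to separate there. In F. ramosissima the choice required a lower median of every gene. The summed TPM at low CO2 was 41.0%, 50.1%, 43.9% and 38.6% of that at control, from C3 to C4. Without the 10 most abundant genes of each species, which held 37.0% to 42.4% of the control sum, it was 41.1%, 51.8%, 41.0% and 38.1%.

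**Figure D2:**
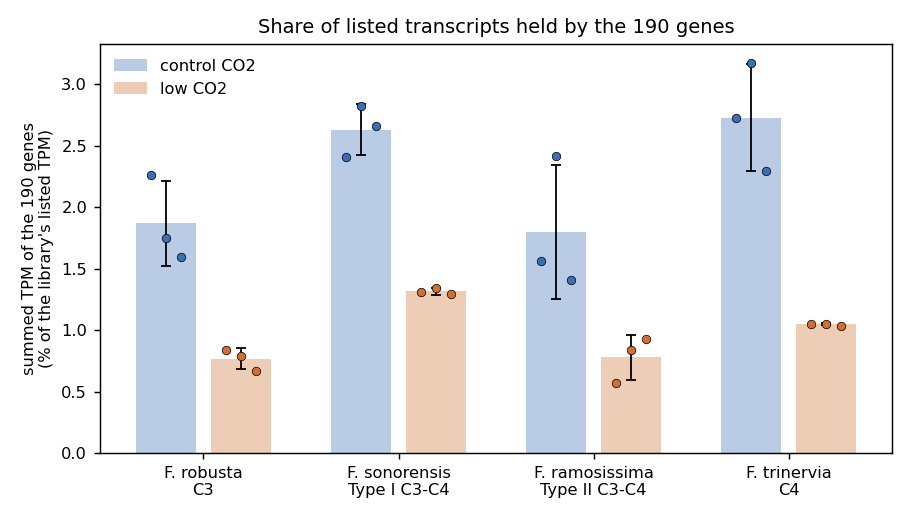
Summed TPM of the 190 genes as a percentage of the TPM listed in each library, for control (blue) and low CO2 (orange) samples of 4 species. Points are the 3 libraries, bars their mean and error bars the SD. The 3 low CO2 libraries of F. trinervia lie within 1.04% to 1.06%, and its control libraries spread from 2.29% to 3.17%.

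Libraries of 1 sample differed in the level of the whole set. Relative to the mean of their sample, the median of the 190 genes lay at 0.23 (log2) in F. robusta control library 1 and at -0.21 in control library 3. In F. ramosissima it lay at 0.53 in control library 2 and at -0.47 in control library 3, and at -0.38 in low CO2 library 1 and 0.28 in low CO2 library 3. All 8632 genes had medians of 0.06, -0.31, -0.09 and 0.14 in these 4 F. ramosissima libraries. In the F. trinervia low CO2 sample the 3 medians of the set lay between -0.01 and 0.00. The median coefficient of variation of the 190 genes over the 3 libraries was 49.8% in the F. ramosissima control and 34.0% in its low CO2 sample, against 13.4% to 19.9% in the other samples.

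In F. ramosissima the choice required a lower median and did not require the libraries to separate. All low CO2 libraries lay below all control libraries in 104 of the 190 genes (54.7%), where the same held for 12% of the 8632 genes. As the lower median was part of the choice, this difference is not a result about the set. In 125 of the 190 genes the lowest control library was library 3, and in 125 the highest low CO2 library was library 3. Comparing single libraries, 117 of the 190 genes were lower in low CO2 library 3 than in control library 3 (32.2% of the 8632 genes). In the other 8 pairings of a low CO2 with a control library 139 to 190 were lower (39.4% to 78.5% of the 8632 genes). Leaving out control library 3 made 63 of the 86 overlapping genes separate, and leaving out low CO2 library 3 made 33 of them separate. Without control library 3 the median change of the 190 genes was -1.3, with -0.28 over the 8632 genes, and 167 genes were separated, with 31.9% over the 8632 genes. Then 187 of the 190 still fell by at least 0.5. This count and those of 63 and 33 genes were not set against all genes.

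A limma test of 3 low CO2 against 3 control libraries was fitted within each species over the 8632 genes, with an adjusted p below 0.05 as the threshold. It called 189 of the 190 genes lower in F. robusta (21.2% of all genes tested), 189 in F. sonorensis (19.9%) and 175 in F. trinervia (12.7%). In F. ramosissima limma called 0 of them (0% of all genes tested), and 115 had an unadjusted p below 0.05 (7.96% of all genes tested). The choice used these contrasts, so high counts in the set were largely built in. Their distance from the shares of all genes is not a result, and the counts only describe the set. The share of genes with every low CO2 library below every control library was 28.8% in the C3, 29.2% in the Type I and 21.5% in the C4 species, where all 190 had to meet this.

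For Gene11966 and Gene05165 the smallest of the 4 falls was larger than for any other of the 80 genes that averaged 10 TPM or more in each species. In F. robusta Gene11966 was at 13.15, 23.21 and 32.75 TPM in the control libraries and at 4.74, 6.57 and 2.41 TPM at low CO2. In F. trinervia it was at 54.42, 46.78 and 57.39 TPM at control and 4.81, 6.39 and 4.75 TPM at low CO2. The F. trinervia medians were 11.3-fold apart, and those of F. robusta 4.90-fold. In F. sonorensis the control libraries held 128.05, 131.68 and 53.07 TPM and the low CO2 libraries 26.84, 28.82 and 23.49 TPM. In F. ramosissima they held 13.84, 21.95 and 12.3 TPM and 3.56, 11.43 and 1.36 TPM. The groups of Gene11966 did not overlap in any species, which the choice required in all but F. ramosissima. In F. ramosissima low CO2 library 2 came close to control library 3.

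Gene05165 was more abundant. Its control libraries held 218.17, 100.67 and 98.32 TPM in F. robusta, and its low CO2 libraries 30.43, 24.19 and 33.44 TPM. The F. sonorensis values were 443.82, 450.84 and 531.04 TPM at control and 113.3, 84.68 and 41.81 TPM at low CO2. The fall of the medians was largest in F. sonorensis (-2.40, log2), and lay between -1.69 and -1.89 in the other species. In F. trinervia Gene05165 was at 349.55, 408.45 and 375.74 TPM at control and 54.79, 100.94 and 103.68 TPM at low CO2. In F. ramosissima the values were 134.27, 154.36 and 45.76 TPM at control and 29.43, 38.16 and 120.03 TPM at low CO2. The F. ramosissima groups overlapped because low CO2 library 3 lay above control library 3.

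**Figure D3:**
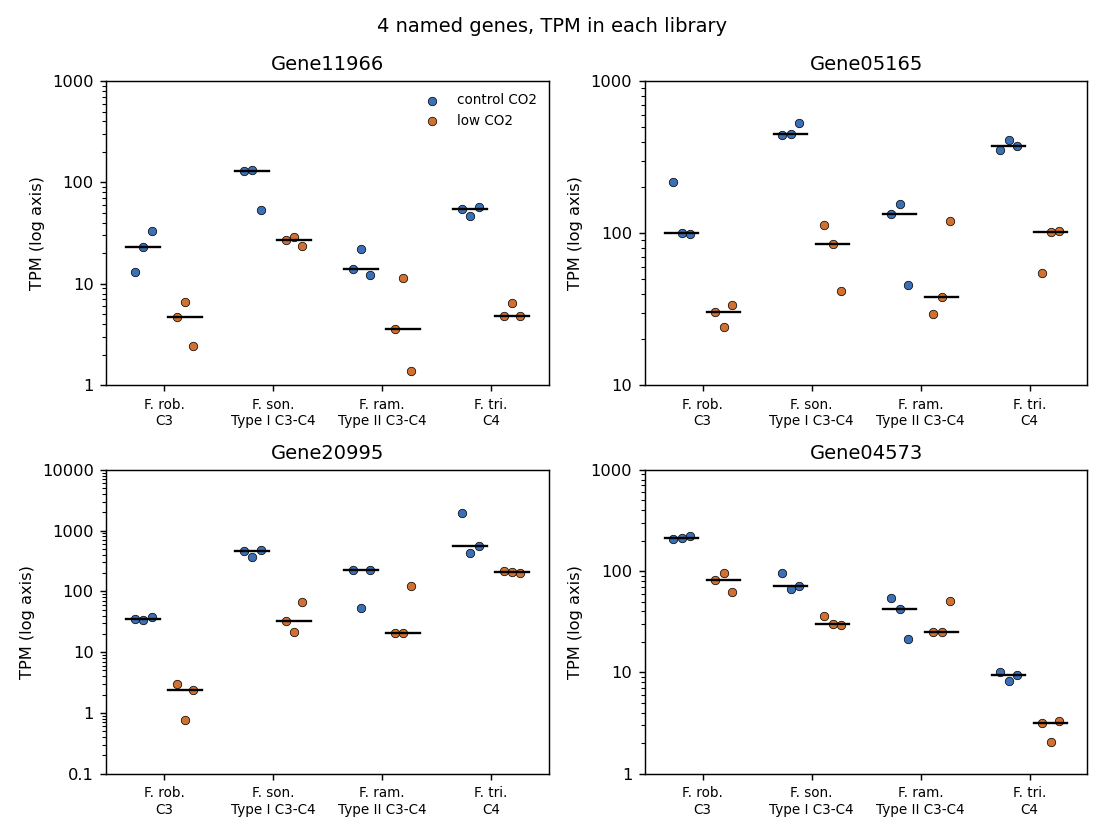
TPM of the 4 named genes in each library (points, log axis, 3 libraries per sample) with the median of the sample (line), for control (blue) and low CO2 (orange) leaves. Low CO2 points lie below control points in F. robusta, F. sonorensis and F. trinervia, as the choice required, and overlap in F. ramosissima for Gene05165, Gene20995 and Gene04573.

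The genes were present at low to high abundance. The median over the 190 genes of the control TPM was 21.1, 34.2, 15.9 and 27.3, from C3 to C4. Over the 8632 genes these medians were 11.4, 19.8, 7.83 and 12.5 TPM. At low CO2 the medians of the 190 genes were 8.54, 14.2, 6.05 and 11.5 TPM. A control level of at least 10 TPM in all 4 species was reached by 99 genes and of at least 100 TPM by 29, while 24 were below 10 TPM in all 4. The low CO2 median was under 1 TPM in 14 genes in F. robusta, 9 in F. sonorensis, 27 in F. ramosissima and 7 in F. trinervia, and in 2 genes in all 4 species. The rank correlation of change and control level over the 190 genes was -0.321 in the C4, -0.184 in the C3, -0.085 in the Type II and 0.154 in the Type I species. The change contains the control level and chose the genes, and the pseudocount shrinks the falls of low genes, so that a negative value is partly built in.

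By mean control TPM the most abundant member was a different gene in each species. The one most abundant in F. trinervia went from 2519.5, 3260.55 and 2324.2 TPM at control to 1373.19, 1269.22 and 1242.91 TPM at low CO2. By median control TPM it also ranked first in F. ramosissima and second in F. robusta, and its fall was moderate in every species (-0.52 to -0.99, log2). The one most abundant in F. sonorensis went from 1725.98, 2464.18 and 1893.81 TPM to 112.42, 148.28 and 80.64 TPM, a change of -4.06. In F. robusta that gene changed by -0.67, from 1859.74, 739.97 and 740.87 TPM to 511.61, 388.11 and 466.84 TPM. The one most abundant in F. robusta went from 1703.68, 1568.51 and 1360.1 TPM to 515.65, 746.02 and 632.96 TPM. In F. ramosissima the last gene was at 19.61, 16.13 and 7.18 TPM at control and at 1.87, 2.34 and 4.97 TPM at low CO2. The groups of these 3 genes did not overlap in any of the 4 species.

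The choice did not compare levels between species, and these were tested next. The question was whether the 190 genes stood at another level in the C3-C4 and C4 leaves than in the C3 leaves of F. robusta. With 1 value per sample (its 3 libraries averaged as TPM, then log2 with 1 added) and CO2 level as a further term, limma was fitted to the 8 samples over the 8632 genes. The spread in this test comes from 8 samples and from how the CO2 response varied between species, which the choice did restrict. Each species had its own genome as the alignment target, and the part of this in the differences was not tested. The choice did act on level within each species, because the pseudocount shrinks the falls of low genes. The 190 genes had a higher median control TPM than the 8632 genes in every species. The part of this in the shares of higher and lower calls was not tested either.

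In C4 F. trinervia, 83 of the 190 genes were higher than in F. robusta (43.7%, against 30.2% of all genes tested) and 23 were lower (12.1%, against 19.4%). In Type II F. ramosissima 35 were higher (18.4%, against 16.9%) and 61 lower (32.1%, against 45.1%). In Type I F. sonorensis 103 were higher (54.2%, against 56.3%) and 19 lower (10%, against 9.88%). The median difference of the 190 genes from F. robusta was 0.49 (log2) in F. trinervia, -0.23 in F. ramosissima and 0.69 in F. sonorensis, where all genes had medians of 0.18, -0.48 and 0.74. In F. sonorensis the shares of the set were therefore close to those of all genes. In F. trinervia more of the set was higher and less of it lower. In F. ramosissima the higher share was close to that of all genes, and less of the set was lower. Higher calls in all 3 species were made for 20 of the 190 genes (10.5%, against 7.69% of all genes), lower calls in all 3 for 7 (3.68%, against 4.52%) and no call for 27 (14.2%, against 8.65%). Libraries 3 of both F. ramosissima samples were left out in a further fit, chosen after the data were examined. In F. ramosissima 29 of the 190 genes were then higher (15.5% of all genes) and 55 lower (41.4%). In F. trinervia 66 were higher (26.6%) and 21 lower (17.2%), and in F. sonorensis 94 (53.1%) and 16 (9.22%).

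The split into higher and lower depended on the scaling. Median-ratio scaling moved the median difference of all genes to 0.01 in F. trinervia, 0.14 in F. ramosissima and -0.05 in F. sonorensis. It gave 51 of the 190 genes higher in F. trinervia (26.8%, against 22.8% of all genes) and 24 lower (12.6%, against 23.5%). In F. ramosissima it gave 72 higher (37.9%, against 32.6%) and 31 lower (16.3%, against 22.4%), and in F. sonorensis 23 higher (12.1%, against 18%) and 37 lower (19.5%, against 24%). In F. ramosissima lower calls outnumbered higher ones on the deposited scale, and the reverse held after median-ratio scaling, in the set and over all genes, and in F. sonorensis the balance moved from higher to lower in both. Quantile normalization left the deposited balance in place, with 28 of the 190 genes higher (14.7%, against 14.4%) and 81 lower (42.6%, against 50.9%) in F. ramosissima, and 49 higher (25.8%, against 27.8%) and 25 lower (13.2%, against 18%) in F. sonorensis. Relative to the median of all genes, the median of the 190 genes in F. trinervia was 0.31 higher on the deposited scale, 0.34 after median-ratio scaling and 0.31 after quantile normalization. At control CO2 138 of the 190 genes had a higher median TPM in F. trinervia than in F. robusta (72.6%, against 56.2% of the 8632 genes), and at low CO2 137 had (72.1%, against 58.6%).

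**Figure D4:**
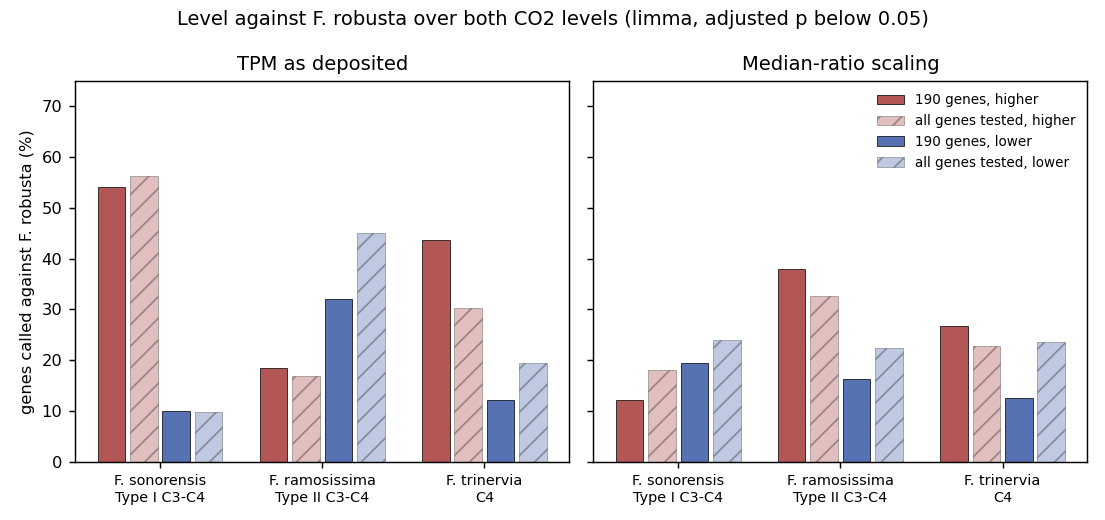
Percentage of genes called higher (red) or lower (blue) than in F. robusta over both CO2 levels, for the 190 genes (solid) and all 8632 genes tested (hatched), with TPM as deposited (left) and after median-ratio scaling (right). In F. trinervia the solid blue bars (12.1% and 12.6%) stand below the hatched ones (19.4% and 23.5%) on both scales. The same holds in F. ramosissima (32.1% and 16.3%, against 45.1% and 22.4%). In F. sonorensis it holds only after median-ratio scaling (19.5%, against 24%).

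Gene20995 had the largest difference in favour of F. trinervia. Its control libraries held 35.51, 34.37 and 37.93 TPM in F. robusta and 1940.38, 421.1 and 564.56 TPM in F. trinervia, and its low CO2 libraries 2.96, 0.77 and 2.41 TPM and 216.13, 210.2 and 202.37 TPM. Every F. trinervia library thus lay above every F. robusta library, also when low CO2 leaves of F. trinervia are set against control leaves of F. robusta. The difference was 5.42 (log2, SE 0.48, limma adjusted p = 0.00039). In F. sonorensis it was 3.67 (adjusted p = 0.00103), with 455.57, 373.73 and 480.6 TPM at control and 32.57, 21.1 and 67.49 TPM at low CO2. In F. ramosissima it was 3.19 (adjusted p = 0.00169), with 226.53, 53.72 and 221.56 TPM at control and 20.87, 20.69 and 122.66 TPM at low CO2, where low CO2 library 3 lay above control library 2. The medians at low CO2 were 14.7-fold, 14.0-fold, 10.6-fold and 2.69-fold lower than at control, from C3 to C4. By the medians the gene was least abundant in F. robusta and most abundant in F. trinervia at both CO2 levels. At control the libraries of F. trinervia and F. sonorensis overlapped, and these species were not tested against each other. Without F. trinervia control library 1 the difference from F. robusta was 4.93 (log2).

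Gene04573 had the largest difference in the other direction. It was at 205.11, 211.76 and 223.11 TPM in the F. robusta control libraries and at 10.14, 8.25 and 9.48 TPM in those of F. trinervia. At low CO2 the values were 81.94, 94.73 and 61.75 TPM in F. robusta and 3.15, 2.04 and 3.28 TPM in F. trinervia. The difference of F. trinervia from F. robusta was -4.39 (log2, SE 0.32, limma adjusted p = 0.000195). The medians at low CO2 were 3.01-fold lower than at control in F. trinervia and 2.58-fold lower in F. robusta, which on the log2 scale with the pseudocount gave changes of -1.34 and -1.36. F. sonorensis (-1.37, adjusted p = 0.00874) and F. ramosissima (-1.82, adjusted p = 0.00296) lay between them. In F. sonorensis the gene was at 95.43, 66.86 and 70.72 TPM at control and 36.38, 30.08 and 29.53 TPM at low CO2. In F. ramosissima it was at 53.7, 42.63 and 21.45 TPM at control and 24.78, 24.83 and 50.47 TPM at low CO2, so that the groups overlapped, with control library 3 below all 3 low CO2 libraries and low CO2 library 3 above control libraries 2 and 3.

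Levels differed less widely for the other 2 named genes. Gene11966 was higher than in F. robusta by 2.21 (log2, SE 0.37, limma adjusted p = 0.00244) in F. sonorensis, and the differences in F. trinervia (0.67, adjusted p = 0.176) and F. ramosissima (-0.14, adjusted p = 0.754) did not pass the threshold. Gene05165 was higher by 1.59 (SE 0.39, adjusted p = 0.0114) in F. sonorensis and by 1.48 (adjusted p = 0.0210) in F. trinervia, and its difference of 0.37 in F. ramosissima (adjusted p = 0.437) did not pass.

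A species that took no part in the choice gives a view of the fall that the choice did not fix. The conditions on the fall were applied in 3 species, among the same 8632 genes, and the change of the chosen genes was then read in the species left out, whose libraries are shared with no other species. Genes chosen in F. sonorensis, F. ramosissima and F. trinervia numbered 301. In F. robusta 260 of them fell by the medians (86.4%, against 52.3% of the 8632 genes), 200 fell by at least 0.5 (66.4%, against 20.3%), and limma called 199 lower (66.1%, against 21.2%) and 5 higher (1.66%, against 13.6%). Of the 377 genes chosen without F. sonorensis, 356 fell there (94.4%, against 56.9%), 202 by at least 0.5 (53.6%, against 17.8%), with 240 called lower (63.7%, against 19.9%) and 4 higher (1.06%, against 13%). Genes chosen in 3 species thus fell in the species left out more often than genes at large, in F. robusta and in F. sonorensis.

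The list chosen without C4 F. trinervia was the longest, with 415 genes. Of these, 315 fell in F. trinervia (75.9%, against 47.4% of the 8632 genes), 213 by at least 0.5 (51.3%, against 14.3%), and 100 did not fall. Limma called 179 lower (43.1%, against 12.7%) and 8 higher (1.93%, against 11.6%). The list chosen without F. ramosissima was the shortest, with 227 genes. Of these, 223 fell in F. ramosissima (98.2%, against 64.9%), and 190 by at least 0.5 (83.7%, against 24.1%). These 190 are the genes of the main choice, as the other conditions were already met. In 111 of the 227 the libraries separated (48.9%, against 12%). Limma called 0 of the 227 lower and 0 higher there (0% of all genes in both directions), with 116 lower and 0 higher at an unadjusted p below 0.05 (7.96% and 4.25% of all genes). Without libraries 3 of both F. ramosissima samples, a choice made after the data were examined, 233 genes were chosen in the other species and limma called 51 of them lower (2.78% of all genes). Without control library 3 of F. ramosissima alone, it called 7 of the 227 lower (0.209% of all genes). The lists differ in length and the requirement in F. ramosissima was weaker, so the shares of the 4 species are not compared with each other.

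**Figure D5:**
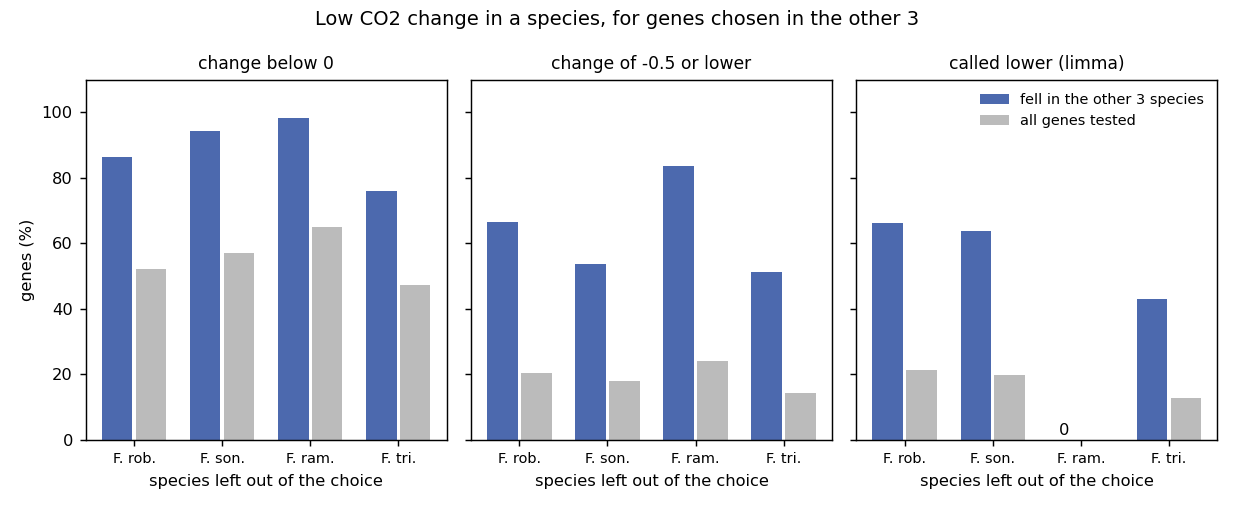
Percentage of genes with a change below 0 (left), a change of -0.5 or lower (middle) and a limma call of lower at low CO2 (right) in the species left out of the choice, for genes chosen in the other 3 species (blue) and all 8632 genes (grey). The blue bars exceed the grey ones in each species and panel except for the calls in F. ramosissima, where both are 0.

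In F. sonorensis the count rested in part on 1 library. Without control library 3, limma called 139 of the 377 genes lower (11.2% of all genes), and after median-ratio scaling 157 of 314 (16.4% of all genes).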

How the data were processed

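Messenger RNA of 8 leaf samples of 4 Flaveria species was sequenced by Illumina with 150 bp paired-end reads. The authors deposited TPM, 1 column per library. Their methods state alignment to the genome of each species with STAR and estimation with RSEM, and the processing notes also name edgeR without a role. No source used here says how rows pair genes across species. Near-identical gene copies share reads, and their values are uncertain. Of 29566 rows, 8 were left out because their 4 IDs occur more than once. All 24 columns were mapped by the sample code, 0 were left unused, and a pool of several F. ramosissima organs was not analysed here.

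TPM was used as deposited with a pseudocount of 1 before log2, which understates changes of low genes. The listed TPM made up 85.88% to 87.01% of the full total in F. sonorensis libraries and 91.24% to 92.6% in the other species. The part of this difference in the levels and summed shares was not tested. Tests used limma 3.58.1 in R 4.3.3 (eBayes with trend, two-sided, Benjamini-Hochberg over all genes tested, threshold 0.05), as TPM holds no counts. The 190 genes, the lists and the tests were chosen with earlier results of these data known. IDs are named by a fixed rule. These are the 2 genes of at least 10 TPM in each species whose smallest fall over the 4 species was largest, and the largest called difference each way between F. trinervia and F. robusta with at least 10 TPM in the higher species. Genes described without an ID were picked by a stated extreme of their values.

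Fits were tested on simulated data over 8632 genes. The F. trinervia against F. robusta test recovered 34% of genes changed by 1 (log2) and 77% of those changed by 2. The tests within species recovered 64%, 75%, 5% and 73% (species in order from C3 to C4) of genes made to fall by 1 (log2).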

Additional observations from a re-analysis of the deposited data

How the results depend on the processing

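The number of genes chosen was 190, and 143 to 230 when 1 library was left out, with the lowest value without F. ramosissima control library 2. It was 116 at a minimum mean of 5 TPM in each species and 104 when separation was also required in F. ramosissima. Without libraries 3 of both F. ramosissima samples it was 224. After median-ratio scaling the conditions chose 130 genes, of which 118 were among the 190, and all 190 still fell in all 4 species, 128 of them by at least 0.5 in all 4. The levels against F. robusta were counted again with each library left out. Genes of the 190 called higher numbered 97 to 105 in F. sonorensis (54.8% to 57.4% of all genes), 28 to 36 in F. ramosissima (15% to 17.5%) and 70 to 85 in F. trinervia (27.8% to 31.3%), and genes called lower 16 to 20 (9.31% to 10%), 51 to 69 (41.4% to 46.6%) and 20 to 24 (17.8% to 20.1%). At a minimum of 5 TPM, which keeps 116 of the 190 genes, 67 were higher (52.5% of all genes) and 9 lower (10.1%) in F. sonorensis, 28 were lower (39.8%) in F. ramosissima, and 55 were higher (30.2%) and 12 lower (19.3%) in F. trinervia. With median-ratio scaling the calls were 23 up (18% of all genes) and 37 down (24%) in F. sonorensis, 72 up (32.6%) and 31 down (22.4%) in F. ramosissima, and 51 up (22.8%) in F. trinervia. Quantile normalization gave 49 higher (27.8%) and 25 lower (18%) in F. sonorensis, 28 higher (14.4%) and 81 lower (50.9%) in F. ramosissima, and 52 higher (23%) and 23 lower (23%) in F. trinervia. The cause of the changes with scaling was not tested. For genes chosen in 3 species, the calls of lower in the species left out ranged over 176 to 199 in F. robusta (15.7% to 20.7% of all genes), 139 to 226 in F. sonorensis (11.2% to 18.5%), 0 to 7 in F. ramosissima (0% to 0.209%) and 149 to 174 in F. trinervia (8.41% to 10.8%) when 1 of its libraries was left out. At a minimum of 5 TPM they were 121 of 169 in F. robusta (24.5% of all genes) and 119 of 234 in F. trinervia (15.1%), where fewer genes were tested. Median-ratio scaling gave 157 of 314 in F. sonorensis (16.4%), and leaving out libraries 3 of both F. ramosissima samples gave 51 of 233 in F. ramosissima (2.78%). Gene20995 and Gene04573 stayed past the threshold in each of the alternatives run, with adjusted p up to 0.00137 and 0.00043.

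Library numbers pair nothing in the labels. Within a species, the deviations of same-numbered control and low CO2 libraries correlated between -0.231 and 0.407. In F. trinervia they reached 0.323 for library 1 and 0.407 for library 2, and at most 0.107 between differently numbered libraries. In F. sonorensis the highest values were 0.224 for the same number and 0.125 for different numbers. The reverse order held in F. robusta (0.118 and 0.31) and F. ramosissima (0.116 and 0.248). With library number as a replicate block, 103 of the 190 genes were higher (41% of all genes) and 29 lower (27.7%) in F. trinervia than in F. robusta in the 24-library fit, which gave 99 (40.7%) and 29 (27.5%) without it. For genes chosen in 3 species, the block gave calls of lower for 197 of 301 in F. robusta (20.7% of all genes), 244 of 377 in F. sonorensis (20.5%), 0 of 227 in F. ramosissima (0%) and 206 of 415 in F. trinervia (14.8%).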
